A study of Mus musculus with 30 samples.

Results

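The genes described here are 9 genes of the perineuronal net and the brain's chondroitin sulfate proteoglycan matrix, taken by symbol from the 17477 genes of the count table: Acan, Bcan, Ncan, Vcan, Hapln1, Hapln4, Tnr, Tnc and Ptprz1. RNA-seq was performed on the hippocampus of 30 adult C57 BL/6J mice, each mouse being 1 polyA-selected library. The groups were 8 socially isolated (SI) females, 7 group-housed (GH) females, 7 SI males and 8 GH males. Isolation meant 1 mouse per cage from weaning until tissue collection in adulthood, GH mice of the same strain shared cages and served as controls, and no genetic change is named for any group. Which GH mice shared a cage is not given in the sources used here. Females were the animals numbered 41 to 79 and males those numbered 1 to 39, so sex and any difference between these number ranges cannot be told apart. All 9 genes had at least 40 counts in every mouse and passed the filter on low counts in both sexes.

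Perineuronal nets are dense coats of extracellular matrix around the soma and proximal dendrites of certain neurons, best known on parvalbumin interneurons and, in the hippocampus, also on CA2 pyramidal cells. Long chains of hyaluronan form their backbone. The lecticans (aggrecan from Acan, brevican from Bcan, neurocan from Ncan and versican from Vcan) are proteoglycans that bind hyaluronan at their amino-terminal end, link proteins (Hapln1 and Hapln4) hold that bond in place, and tenascins (tenascin-R from Tnr and tenascin-C from Tnc) tie lecticans to one another at the other end. Ptprz1 encodes a receptor-type tyrosine phosphatase whose extracellular domain carries chondroitin sulfate and whose shed form, phosphacan, is itself a matrix proteoglycan. Nets form during postnatal development and are known to restrict plasticity. Brevican, neurocan and phosphacan are made in large part by astrocytes and oligodendrocyte precursors and also lie in the loose matrix outside nets, whereas aggrecan is made mainly by the neurons that bear them.

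Promoters are printed for the genes whose housing results differed in direction: Bcan and Ptprz1, which fell in SI females, and Acan, whose fitted difference was positive. The sequences are from RefSeq on GRCm38.p6 and run from 250 bases before to 50 bases after the gene start, 5′ to 3′ on the gene's strand. Capitals mark matches, on either strand, to a TATA box (TATAAA), a GC box (GGGCGG, read CCGCCC on the other strand), a CCAAT box (CCAAT, read ATTGG on the other strand), a SOX core (ACAAAG) or a cyclic AMP response element (TGACGTCA).
Bcan, chr3:88000307-88000606, minus strand: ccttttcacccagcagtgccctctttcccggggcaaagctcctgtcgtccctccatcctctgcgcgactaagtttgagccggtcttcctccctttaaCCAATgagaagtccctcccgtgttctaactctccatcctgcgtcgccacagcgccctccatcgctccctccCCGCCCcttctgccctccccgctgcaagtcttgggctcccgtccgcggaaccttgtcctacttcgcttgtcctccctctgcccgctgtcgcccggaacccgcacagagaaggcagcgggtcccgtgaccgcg
Ptprz1, chr6:22875252-22875551, plus strand: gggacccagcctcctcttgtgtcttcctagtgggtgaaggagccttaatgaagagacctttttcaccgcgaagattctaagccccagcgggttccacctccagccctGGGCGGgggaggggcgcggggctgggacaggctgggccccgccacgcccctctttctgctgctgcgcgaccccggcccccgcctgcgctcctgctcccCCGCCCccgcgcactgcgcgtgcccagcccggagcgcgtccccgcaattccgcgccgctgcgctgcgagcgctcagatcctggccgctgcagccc
Acan, chr7:79052976-79053275, plus strand: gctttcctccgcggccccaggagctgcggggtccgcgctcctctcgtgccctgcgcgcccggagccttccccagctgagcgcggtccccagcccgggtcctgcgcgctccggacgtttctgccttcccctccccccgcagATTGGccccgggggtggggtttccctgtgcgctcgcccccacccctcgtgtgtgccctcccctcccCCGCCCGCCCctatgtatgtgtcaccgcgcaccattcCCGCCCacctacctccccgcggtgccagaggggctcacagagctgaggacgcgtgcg
The Bcan window held 1 GC box and 1 CCAAT box, the Ptprz1 window 2 GC boxes, and the Acan window 3 GC boxes, of which a pair overlap, and 1 CCAAT box. None of the 3 held a TATA box, SOX core or cyclic AMP response element, and their GC contents were 64.0% for Bcan, 71.7% for Ptprz1 and 74.0% for Acan. Among all 32851 promoters of the table, 35.7% held a GC box, 37.4% a CCAAT box, 13.6% a TATA box, 18.7% a SOX core and 1.79% a cyclic AMP response element. Of the 9 genes, 8 had a promoter entry, and among the other entries the Ncan and Tnc promoters held a TATA box, and that of Tnr a SOX core. Such matches describe letters in a window and are not evidence of binding.

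Total counts per library ranged from 18809307 to 100844898. In males the median was 25609585 under SI and 49542256 under GH, and the means differed (two-sided exact permutation test, all 6435 splits, p = 0.0392). In females the medians were 43484444 and 39728004, a difference within the spread (the same exact test, p = 0.397). Males 25, 33 and 39, all SI, stood apart on principal component 1 of the male libraries, to which 54.2% of the variance belonged. They lay between -103.3 and -63.4 on it, and the other 12 males between -0.7 and 37.6. Because these are bulk libraries, fewer cells of a type and less RNA per cell cannot be told apart in any difference below.

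Per kilobase of transcript, Bcan was the most abundant of the 9 and Acan the least in GH females. Levels are CPM, which are counts scaled to a common (TMM-adjusted) library total, divided here by the length of the longest coding transcript, so a shorter isoform in use would be understated. Bcan stood at 102 ± 9.18 CPM per kb (SD, n = 7) in GH females, above every value of any other member. Next came the neurocan gene Ncan at 32.7 ± 3.69, Ptprz1 at 24.8 ± 2.41, Tnr at 24 ± 5.29 and the link protein gene Hapln4 at 22.7 ± 3.23 CPM per kb. The ranges over mice of Ncan (26.7 to 39) and Ptprz1 (21.8 to 27.3) met, and those of Ptprz1, Tnr and Hapln4 overlapped. The order given is that of the means. All genes were measured in the same mice, and these neighbours were not compared within mice. Hapln1, the link protein gene that is most prominent during development, was lower at 5.56 ± 0.796 CPM per kb. The genes of the developmental matrix molecules tenascin-C (Tnc, 1.10 ± 0.298) and versican (Vcan, 0.825 ± 0.0913) overlapped each other, and Acan lay below every Vcan value at 0.377 ± 0.0818 CPM per kb. In GH males the levels were close to these, with Bcan at 96.7 ± 4.91 and Acan at 0.462 ± 0.0613 CPM per kb (SD, n = 8). Acan is thus measured from few reads, 40 to 667 counts per mouse, against 5544 to 29695 for Bcan.

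**Figure D1:**
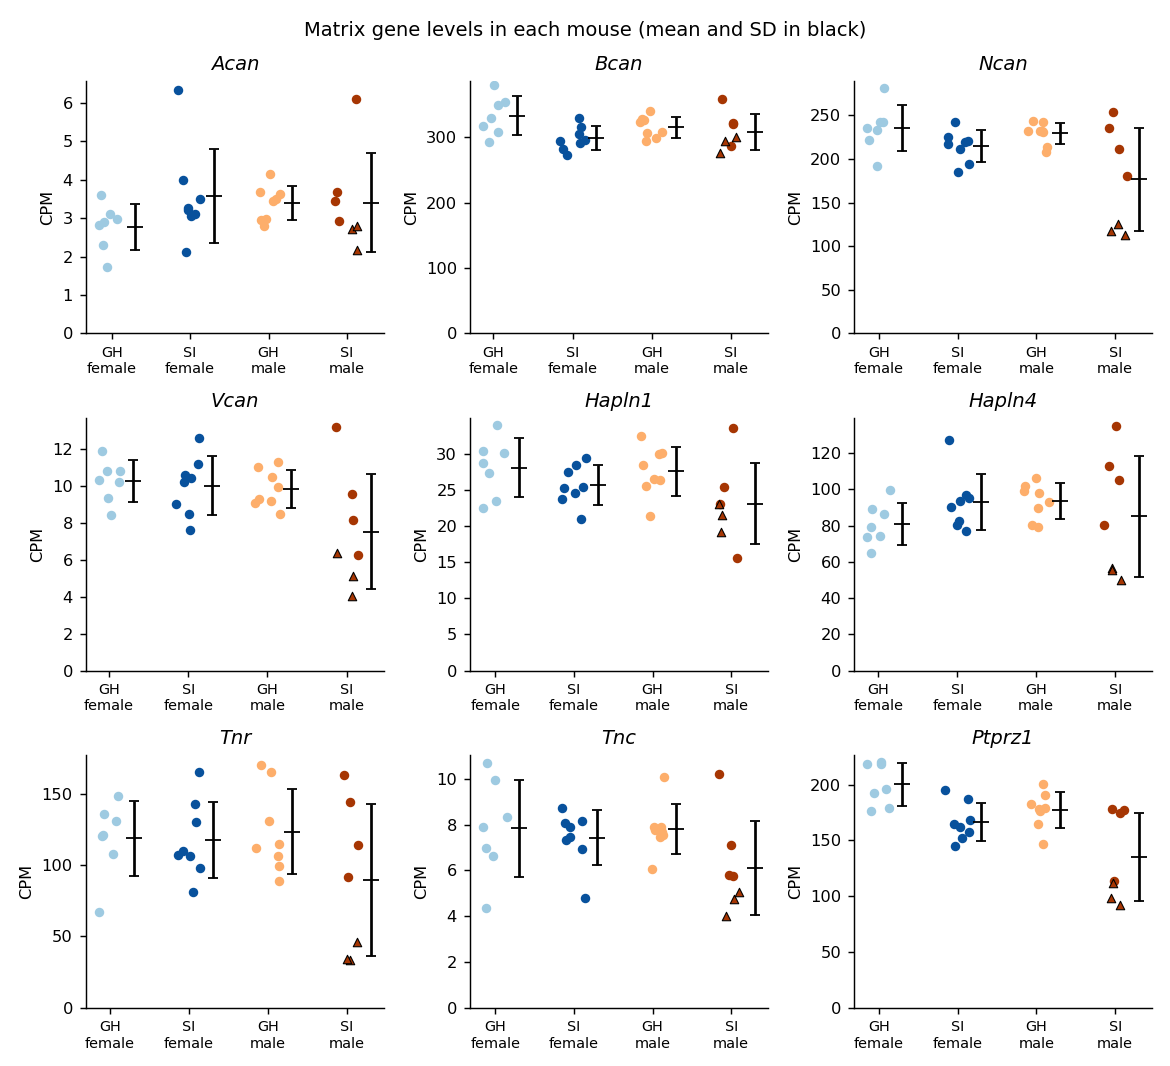
Levels of the 9 matrix genes in CPM (y axis, starting at 0) for each mouse, by housing group and sex, with the mean and SD of each group in black; triangles are SI males 25, 33 and 39. Ptprz1 is the gene whose SI and GH females overlap least, with 6 of 8 SI females below all 7 GH females, and the triangles lie below all GH males in 7 of the 9 panels.

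In females, 2 of the 9 genes were DEGs between SI and GH, Bcan and Ptprz1, and both fell. Over all 16026 genes tested, 3.89% were DEGs, and 2.93% were DEGs lower in SI. A DEG is a gene whose p from the quasi-likelihood test of edgeR, adjusted over all genes tested by the Benjamini-Hochberg method, is under 0.05, and a Log2FC is SI minus GH on the log2 scale as fitted with surrogate variables. The Log2FC was negative for 6 of the 9 and positive for 3, with a median of -0.06 against 0.01 for all genes tested. At an unadjusted p under 0.05 stood 4 of the 9, against 20.2% of all genes, with 2 lower (11.0% of all genes) and 2 higher in SI (9.29%). For none of the 9 were the SI and GH females fully apart, as they were for 0.3% of all genes.

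Ptprz1, the gene of the phosphatase and of phosphacan, was 145, 164 and 195 CPM in SI females as lowest, median and highest, and 176, 196 and 220 CPM in GH females. All 8 SI females lay below the GH median and 6 lay below all GH females, the exceptions being SI animals 41 and 73. The means were 166 ± 17.0 CPM (SD, n = 8) and 200 ± 19.5 CPM (SD, n = 7). The Log2FC was -0.25 (SE 0.0642, edgeR quasi-likelihood test, Benjamini-Hochberg adjusted p = 0.0398), a level 0.841 times that of GH. This call was close to the threshold. It was lost when any 1 of SI 45, 49, 53, 63 or 68 or GH 48, 54 or 71 was left out (adjusted p = 0.0517 to 0.165 by the same edgeR test), in fits that called 0.55% to 3.95% of all genes. The Log2FC was between -0.31 and -0.21 over all 15 fits without 1 mouse. The call was also lost without surrogate variables (Log2FC -0.27, edgeR adjusted p = 0.119) and with the position digit of the labels as a factor (Log2FC -0.27, edgeR adjusted p = 0.141).

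Bcan, the brevican gene, was 273, 296 and 330 CPM in SI females as lowest, median and highest, and 293, 330 and 381 CPM in GH females. The groups overlapped widely: 7 of 8 SI females lay below the GH median, but only 3 below all GH females. The means were 299 ± 18.4 CPM (SD, n = 8) and 333 ± 30 CPM (SD, n = 7). The Log2FC was -0.14 (SE 0.0367, edgeR quasi-likelihood test, Benjamini-Hochberg adjusted p = 0.0383), or 0.905 times the GH level. This call too sat at the threshold. It was lost when any 1 of SI 45, 49, 52, 53, 63, 68 or 73 or GH 48, 54 or 78 was left out (edgeR adjusted p = 0.0521 to 0.12), in fits that called 0.55% to 6.69% of all genes. The Log2FC stayed between -0.17 and -0.13 in all 15 fits without 1 mouse. Of 10 alternative fits, 5 lost the call. These were edgeR without surrogate variables (adjusted p = 0.288), with 1 fewer (0.0633), with no filter (0.0602) and with the position digit of the labels as a factor (0.335), and limma-voom (adjusted p = 0.111).

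Astrocyte markers moved with these genes. In SI females 4 of 8 listed astrocyte markers fell, namely the glutamate transporter genes Slc1a2 (Log2FC -0.28, edgeR adjusted p = 0.0108) and Slc1a3 (-0.24, edgeR adjusted p = 0.014), Aldh1l1 (-0.27, edgeR adjusted p = 0.0215) and Aldoc (-0.22, edgeR adjusted p = 0.0163). Their summed level was 4530 to 6410 CPM in SI females (median 5520) and 5520 to 7420 CPM in GH females (median 6840), the median Log2FC of the list was -0.22, and no marker was at 0 in any library. The part of astrocyte RNA in the Bcan and Ptprz1 results was not tested. Among markers of oligodendrocyte precursors, the other main source of these proteoglycans, 0 of 6 were called, and their summed level was 339 to 406 CPM in SI and 344 to 422 CPM in GH females. The lowest Log2FC of that list was -0.16 for Pdgfra (edgeR unadjusted p = 0.00403, adjusted p = 0.0702). Sox10 and Gpr17 were at 0.02 and 0.03, and the median of the list was -0.05, so a fall in precursor RNA is not excluded.

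The lectican genes did not move as a group in females. Acan, the aggrecan gene and the one most tied to nets, was 2.11, 3.24 and 6.34 CPM in SI females and 1.73, 2.9 and 3.6 CPM in GH females as lowest, median and highest. Of the SI females, 7 of 8 lay above the GH median, yet only 2 above all GH females, and SI animal 45, the deepest library, was far above the rest. The Log2FC was 0.31 (SE 0.113, 95% interval 0.09 to 0.53), with an unadjusted p of 0.014 and an adjusted p of 0.131 by edgeR's quasi-likelihood test. Without SI 45 it was 0.22. Ncan was 185, 219 and 243 CPM in SI and 192, 235 and 281 CPM in GH females, with 7 of 8 SI females below the GH median and a Log2FC of -0.11 (SE 0.0565, edgeR adjusted p = 0.279). Vcan had the same median of 10.3 CPM in both groups and a Log2FC of -0.05 (SE 0.065, edgeR adjusted p = 0.727). The 4 lecticans therefore comprised 1 DEG, Bcan, and 3 genes whose differences did not pass the threshold, 2 of them negative and 1 positive.

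The link protein genes differed in sign. Hapln4, which encodes a link protein of mature nets, was 77.2, 92.0 and 127 CPM in SI females and 64.9, 79.4 and 99.7 CPM in GH females as lowest, median and highest. It was above the GH median in 7 of 8 SI females but above all GH females only in SI animal 45. The Log2FC was 0.16 (SE 0.0467), with an adjusted p of 0.0585 by edgeR's quasi-likelihood test, just above the threshold and so not called. With 1 mouse left out, 3 of 15 fits called Hapln4. These lacked GH 46, SI 41 or GH 79 (edgeR adjusted p = 0.0266, 0.0292 and 0.0386). They called 8.55%, 5.16% and 4.34% of all genes. The other 12 did not call it (edgeR adjusted p up to 0.206), and without SI 45 the Log2FC was 0.13. Of 10 alternative fits, 3 called it. These were DESeq2 (adjusted p = 0.0156) and edgeR with 1 surrogate variable more (0.0355) or with length and GC trends removed (0.0113). They called 7.87%, 6.76% and 9.48% of all genes. The other 7 did not (edgeR or limma-voom adjusted p up to 0.506). Hapln1 was 21.0, 25.3 and 29.4 CPM in SI and 22.5, 28.7 and 34 CPM in GH females, with a Log2FC of -0.06 (SE 0.0614, edgeR adjusted p = 0.615).

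The tenascin genes showed no detectable change in females. Tnr was 80.8, 108 and 165 CPM in SI and 66.9, 121 and 148 CPM in GH females, with a Log2FC of 0.01 (SE 0.0626, 95% interval -0.11 to 0.14) that took either sign among the alternative fits. Tnc was 4.81, 7.69 and 8.72 CPM in SI and 4.38, 7.91 and 10.7 CPM in GH females, with a Log2FC of -0.11 and a wide 95% interval of -0.37 to 0.15. The edgeR adjusted p was 0.936 for Tnr and 0.71 for Tnc.

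**Figure D2:**
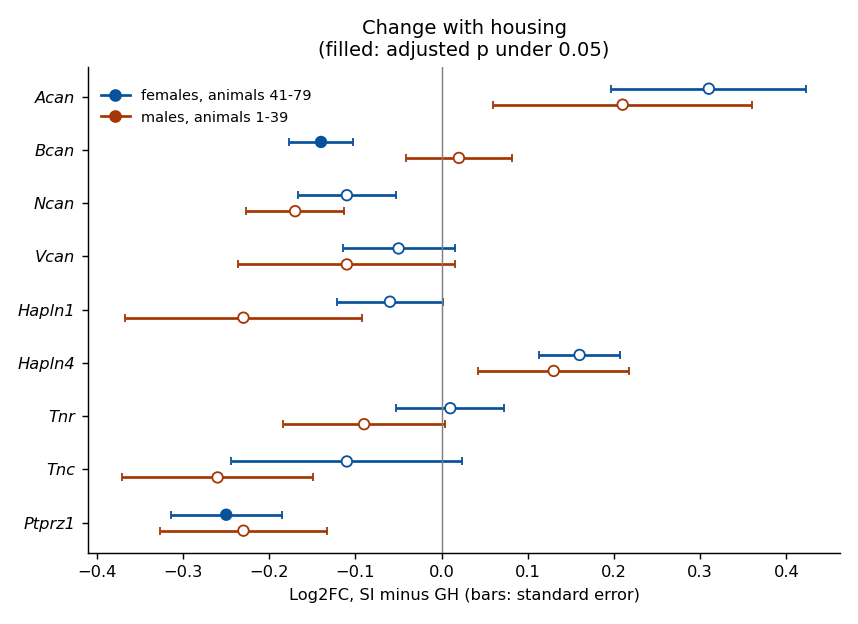
Log2FC of SI minus GH (x axis) for the 9 genes in females (blue) and males (red), with bars of 1 standard error; filled points have an adjusted p under 0.05. Only Bcan (-0.14) and Ptprz1 (-0.25) in females are filled. The Ptprz1 point of males (-0.23) lies beside that of females, while the Bcan point of males (0.02) lies near 0. Without SI males 25, 33 and 39, in a fit with 4 surrogate variables instead of 2, the male Ptprz1 value is -0.01.

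In males, 0 of the 9 genes were DEGs, as were 0.0% of all 15833 genes tested with edgeR's quasi-likelihood test, whose lowest adjusted p among the 9 was 0.314. An unadjusted p under 0.05 was found for 3 of the 9, all lower in SI, against 13.0% of all genes (7.38% lower and 5.63% higher). The SI and GH males were fully apart for none of the 9 and for 0.0568% of all genes. DESeq2 with the same surrogate variables also called 0 of the 9, in a fit that called 0.278% of all genes. The median Log2FC was -0.11, with 6 of the 9 negative.

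The 3 genes with an unadjusted p under 0.05 were Ncan, Tnc and Ptprz1. Ptprz1 was 92.2, 114 and 178 CPM in SI males as lowest, median and highest, and 147, 179 and 201 CPM in GH males. Of the SI males, 4 of 7 lay below all GH males, and the remaining 3 lay inside the GH range. The Log2FC was -0.23 (SE 0.0964), with an unadjusted p of 0.0291 and an adjusted p of 0.354 by edgeR's quasi-likelihood test. Ncan was 113, 181 and 254 CPM in SI and 208, 232 and 244 CPM in GH males, with a Log2FC of -0.17 (SE 0.0567, edgeR unadjusted p = 0.00935, adjusted p = 0.314). Tnc was 4.02, 5.76 and 10.2 CPM in SI and 6.08, 7.71 and 10.1 CPM in GH males, with a Log2FC of -0.26 (SE 0.111, edgeR unadjusted p = 0.0319, adjusted p = 0.358). SI males spread on both sides of the GH range for Ncan and Tnc, with 4 and 5 of 7 below all GH males and 1 above.

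The low values came mostly from animals 25, 33 and 39. These 3 SI males lay below all GH males for Acan, Ncan, Vcan, Hapln4, Tnr, Tnc and Ptprz1, and 1 of the 3 did so for Bcan and for Hapln1. Tnr, the tenascin-R gene, showed this most plainly: it was 33.9, 33.7 and 46.1 CPM in animals 25, 33 and 39, 91.4 to 163 CPM in the other 4 SI males and 88.8 to 170 CPM in GH males. For Ncan the 3 animals had 113, 118 and 125 CPM, the other SI males 181 to 254 CPM with a mean of 221, and GH males a mean of 230 CPM. For Ptprz1 the other 4 SI males had a mean of 161 CPM against 178 CPM in GH males. Without the 3 animals 0 of the 9 genes were called, against 0.00616% of all genes. That fit took 4 surrogate variables, against 2 with all males, so its values reflect the change of model as well as the omission. The Log2FC was then -0.01 for Ptprz1, -0.06 for Ncan and -0.28 for Tnc, so that of Tnc alone of these 3 was as large as with all males. It was 0.03 for Vcan, 0.11 for Hapln1 and -0.01 for Hapln4. The difference in mean log2 CPM of Tnr, with no surrogate variable, was -0.69 in males, while its fitted Log2FC was -0.09. For Ncan these values were -0.44 and -0.17. Surrogate variable 1 of the male fit was 0.5968, 0.5168 and 0.3445 in animals 25, 33 and 39 and negative in every other male. The fitted male Log2FC are thus adjusted for a variable that sets these 3 SI mice apart, and are not plain differences in mean.

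Other genes of the set gave no consistent direction in males. Acan was 2.17, 2.92 and 6.11 CPM in SI and 2.81, 3.48 and 4.14 CPM in GH males, with a Log2FC of 0.21 (SE 0.15) that was -0.07 without SI animal 7. Bcan was 277, 300 and 359 CPM in SI and 294, 316 and 340 CPM in GH males, and its Log2FC was 0.02 (SE 0.0615). Hapln4 was 49.8, 80.3 and 135 CPM in SI and 79.3, 95.5 and 106 CPM in GH males, spreading beyond the GH range on both sides, with a Log2FC of 0.13 (SE 0.0874). Hapln1 was 15.6, 23.1 and 33.6 CPM in SI and 21.4, 27.4 and 32.4 CPM in GH males, with a Log2FC of -0.23 (SE 0.138). The Log2FC was -0.11 (SE 0.126) for Vcan and -0.09 (SE 0.094) for Tnr. The edgeR adjusted p of these 6 genes was from 0.469 to 0.932. A single library moved the male calls as well: without SI animal 27, Ncan (Log2FC -0.25, edgeR adjusted p = 0.0097), Hapln1 (-0.46, edgeR adjusted p = 0.00904) and Ptprz1 (-0.37, edgeR adjusted p = 0.0138) were called, in a fit that called 15.3% of all genes. Without SI animal 38 the same genes moved the other way, to a Log2FC of -0.08 for Ncan, -0.03 for Hapln1 and -0.06 for Ptprz1, with 0.0% of all genes called. Over all 15 fits without 1 male, the Log2FC ranged from -0.25 to -0.08 for Ncan, from -0.46 to -0.03 for Hapln1 and from -0.37 to -0.06 for Ptprz1.

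SI males spread more widely than GH males. The SD of log2 CPM was larger in SI males for 9 of the 9 genes, as it was for 91.6% of all genes tested, with a median SI to GH ratio of 2.9 for the 9 and 2.17 for all genes. Without animals 25, 33 and 39 it was still larger for 9 of the 9, against 75.2% of all genes, with median ratios of 2.29 and 1.37. In females it was larger in SI for 4 of the 9, against 50.4% of all genes. Astrocyte markers were lower in SI males without a call: their summed level was 3540 to 6060 CPM in SI males (median 4390) and 4960 to 6830 CPM in GH males (median 5740), with a median Log2FC of -0.21, and their part in the male values was not tested.

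No difference between the sexes in the response to housing was detected. In a fit of all 30 mice the interaction of sex and housing called 0 of the 9 genes and 0.0% of 16391 genes by edgeR's quasi-likelihood test, with 7.48% of all genes and 0 of the 9 at an unadjusted p under 0.05. The lowest unadjusted p of the 9 was 0.0697, for Bcan, whose Log2FC was 0.1 higher in males than in females (SE 0.0535, 95% interval -0.0 to 0.21, adjusted p = 0.692). For Ptprz1 the interaction was 0.09 (SE 0.0958, 95% interval -0.1 to 0.28). The DEG call of Bcan and Ptprz1 in females alone is therefore not shown to be a difference between the sexes.

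GH males and GH females, which are also the controls of both housing comparisons, differed in 6.31% of 16391 genes (3.31% lower and 3.01% higher in males) but in 0 of the 9. At an unadjusted p under 0.05 stood 4 of the 9, with 2 lower and 2 higher in males, against 26.4% of all genes. The adjusted p of 3 members lay just above the threshold by edgeR's quasi-likelihood test. Male minus female, the Log2FC was -0.21 for Ptprz1 (SE 0.0655, adjusted p = 0.0523), 0.42 for Acan (SE 0.134, adjusted p = 0.0576) and 0.25 for Hapln4 (SE 0.0807, adjusted p = 0.0592) by the same edgeR test. Acan was above all GH females in 3 of 8 GH males, and Ptprz1 was below all GH females in 3 of 8. DESeq2 called these 3 genes and Bcan (Log2FC -0.1), in a fit that called 11.8% of all genes.

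Of 60 further genes listed for the same matrix, 59 were in the table and were tested. They comprise other link proteins and proteoglycans, hyaluronan synthases and hyaluronidases, enzymes of chondroitin sulfate synthesis, matrix proteases with their inhibitors, and receptors and ligands. In females 4 of the 59 fell, 0 rose and 55 did not pass the test, where 3.89% of all genes were called and 2.93% fell. The median Log2FC was -0.03 against 0.01 for all genes. Each of the 4 came from a different group: 1 of 10 other link proteins and proteoglycans, 0 of 7 hyaluronan genes, 1 of 17 chondroitin sulfate enzymes, 1 of 11 proteases and inhibitors, and 1 of 14 receptors and ligands.

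Cspg5, the gene of the transmembrane proteoglycan neuroglycan C, was 341 to 440 CPM in SI and 367 to 540 CPM in GH females, and fell by 0.18 on the log2 scale (SE 0.0359, edgeR quasi-likelihood test, Benjamini-Hochberg adjusted p = 0.0129). Xylt1, the xylosyltransferase that starts glycosaminoglycan chains on core proteins, was 42.7 to 69.1 CPM in SI and 50.6 to 79.8 CPM in GH females, with a Log2FC of -0.16 (SE 0.0382, edgeR adjusted p = 0.0317). Timp3, an inhibitor of metalloproteases including ADAMTS enzymes that cleave lecticans, was 89.0 to 115 CPM in SI and 105 to 149 CPM in GH females, with a Log2FC of -0.28 (SE 0.0513, edgeR adjusted p = 0.00953). The groups overlapped for these genes, with 3, 1 and 4 of 8 SI females below all GH females in the same order. Mdk, the growth factor midkine and a ligand of the Ptprz1 receptor, was 15.1 to 23.8 CPM in SI and 21.4 to 29.4 CPM in GH females, with 7 of 8 SI females below all GH females and a Log2FC of -0.31 (SE 0.0636, edgeR adjusted p = 0.014). Of the other listed ligands of Ptprz1, Ptn (Log2FC -0.13, edgeR adjusted p = 0.138) and Cntn1 (-0.05, edgeR adjusted p = 0.627) were not called. Leaving out SI 68 ended the calls of Cspg5, Timp3 and Mdk (edgeR adjusted p = 0.0519, 0.0595 and 0.051), in a fit that called 0.55% of all genes. Their Log2FC was then -0.19, -0.23 and -0.32. Leaving out SI 63 ended the call of Mdk (edgeR adjusted p = 0.0556), in a fit that called 1.06% of all genes. Xylt1 lost its call without any 1 of SI 49, 53, 63, 68 or 73 or GH 48, 54 or 79, in fits that called 0.55% to 4.34% of all genes. In males the Log2FC was -0.08 for Cspg5, -0.3 for Xylt1, -0.1 for Timp3 and 0.08 for Mdk, with no call. For Mdk, 5 of 7 SI males lay above all GH males and 1 below, with means of 26.1 ± 10.1 CPM (SD, n = 7) and 18.6 ± 2.03 CPM (SD, n = 8). The interaction of sex and housing for Mdk was 0.34 (SE 0.123, edgeR unadjusted p = 0.0101, adjusted p = 0.604).

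**Figure D3:**
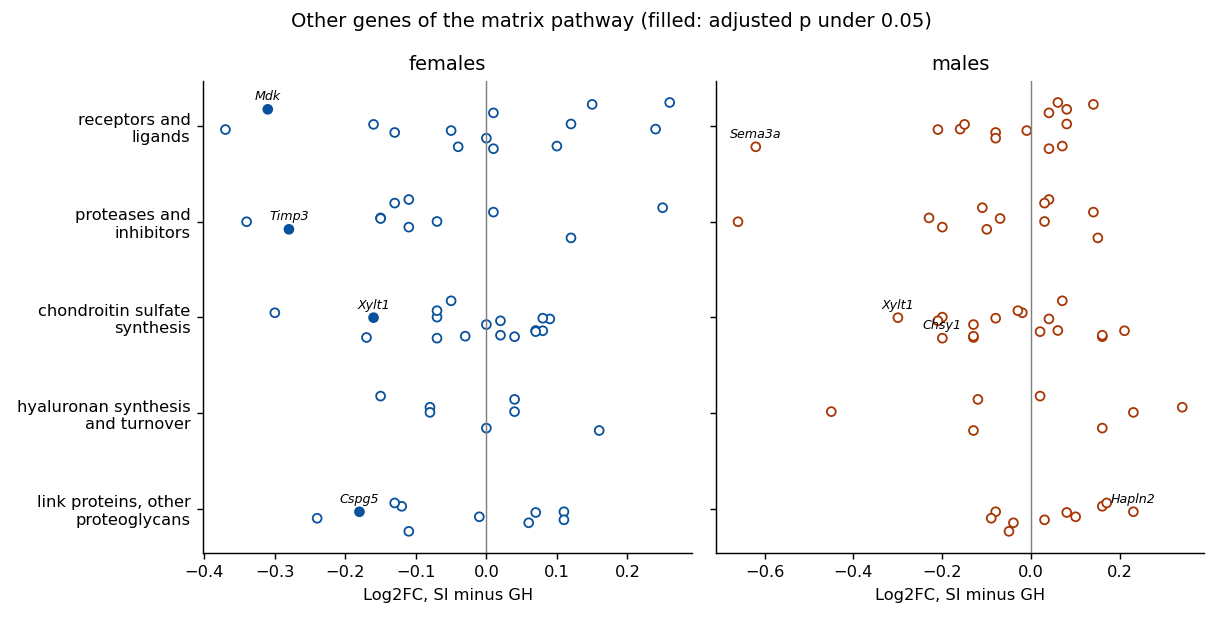
Log2FC of SI minus GH (x axis) for the 59 other matrix genes, grouped by role, in females and males; each point is a gene, filled where its adjusted p is under 0.05, and the position within a row is scattered to part the points. The 4 filled points, Mdk, Timp3, Xylt1 and Cspg5, are all left of 0 in females, and no point is filled in males.

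In males 0 of the 59 were called, with 5 lower and 4 higher at an unadjusted p under 0.05 and a median Log2FC of -0.01. Of all genes, 0.0% were called, and 7.38% were lower and 5.63% higher at an unadjusted p under 0.05, so these counts lie near the background. The 4 with the smallest p were Xylt1, Hapln2, Sema3a and Chsy1. Xylt1 was 20.7 to 76.4 CPM in SI and 56.1 to 79.6 CPM in GH males, 4 of 7 SI males lying below all GH males, with a Log2FC of -0.3 (SE 0.0829, edgeR unadjusted p = 0.00206, adjusted p = 0.295). Sema3a, a secreted guidance cue that binds chondroitin sulfate in nets, was 1.76 to 3.5 CPM in SI and 3.21 to 5.56 CPM in GH males, with a Log2FC of -0.62 (SE 0.181, edgeR unadjusted p = 0.00325, adjusted p = 0.295). Hapln2, a link protein gene of the node of Ranvier, was 15.6 to 25.3 CPM in SI and 13.7 to 19.6 CPM in GH males, with 5 of 7 SI males above all GH males and a Log2FC of 0.23 (SE 0.0659, edgeR adjusted p = 0.295). Chsy1, a chondroitin sulfate synthase, was 9.26 to 14.3 CPM in SI and 12.6 to 16.1 CPM in GH males, with a Log2FC of -0.2 (SE 0.0751, edgeR adjusted p = 0.33). All 4 passed the threshold without SI animal 27, in the fit that called 15.3% of all genes, with edgeR adjusted p from 0.00609 for Xylt1 to 0.0447 for Chsy1. Without SI animal 38 the Log2FC was -0.13 for Xylt1, -0.42 for Sema3a, 0.17 for Hapln2 and -0.15 for Chsy1, and 0.0% of all genes were called. Between GH males and GH females 7 of the 59 were called, where 6.31% of all genes were called: Timp3, Mdk and Hyal1 lower in males, and Chst15, Rtn4r, Rtn4rl2 and Nptx2 higher, the last 4 and Hyal1 being named after their values were seen. Without surrogate variables this comparison called 0.0976% of all genes, and without SI animals 25, 33 and 39 it called 0.901%.

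Each lectican gene lies next to a link protein gene, with no protein-coding gene between them in the RefSeq order: Hapln1 beside Vcan on chromosome 13, Hapln2 beside Bcan on chromosome 3, Hapln3 beside Acan on chromosome 7 and Hapln4 beside Ncan on chromosome 8. By the sign of the estimate alone, the members of a pair did not agree in females except for Hapln1 and Vcan. Their Log2FC in females was -0.06 and -0.05 for Hapln1 and Vcan, 0.11 and -0.14 for Hapln2 and Bcan, -0.11 and 0.31 for Hapln3 and Acan, and 0.16 and -0.11 for Hapln4 and Ncan. Bcan was the only DEG among them. The edgeR adjusted p of the others was from 0.0585 (Hapln4) to 0.733 (Hapln3), so their signs are uncertain. In males the Log2FC were -0.23 and -0.11, 0.23 and 0.02, -0.05 and 0.21, and 0.13 and -0.17, in the same order of pairs.

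Within housing groups, the 9 genes fell into opposing patterns over the 15 females. These correlations are a description over mice after subtracting each group's mean log2 CPM, and the values of 1 mouse share its library, depth and dissection. Acan, Vcan, Tnr and Hapln4 varied together, with Spearman's rho from 0.582 (Acan and Hapln4) to 0.829 (Vcan and Tnr). Over the 12 males other than animals 25, 33 and 39, their rho was from 0.259 (Vcan and Hapln4) to 0.678 (Vcan and Tnr). Ncan had a rho with Tnr of 0.693 in females and 0.825 in these males, but with Hapln4 only 0.343 and 0.364. Bcan ran against Acan, Vcan, Tnr and Hapln4. Acan and Bcan had a rho of -0.825 and a Pearson's r of -0.742, which was -0.863 without the 2 females farthest from the median of Acan. Bcan and Tnr had a rho of -0.632 and an r of -0.705, which was -0.495 without the 2 females farthest from the median of Bcan. Over the 12 males other than animals 25, 33 and 39, Acan and Bcan had a rho of -0.608 and an r of -0.634, and Bcan and Tnr a rho of -0.762 and an r of -0.774. Of 36 pairs, 23 were above 0 in females and 24 in the 12 males, with median rho of 0.286 and 0.284, while the median over pairs drawn from every 20th gene of the table's tested genes was -0.0 in females. Over all 15 males, animals 25, 33 and 39 included, 33 pairs were above 0 and the median rho was 0.652. There Bcan did not run against the same genes: its rho was -0.064 with Acan, 0.004 with Vcan, 0.179 with Tnr and 0.311 with Hapln4. Ptprz1 and Bcan, both DEGs, hardly varied together within groups, with a rho of -0.096 in females and -0.217 in the 12 males. On principal component 1 of the female libraries (22.3% of the variance), animals 78 and 53 lay lowest and 45, 71 and 63 highest. Tnr was 66.9 and 80.8 CPM in the former and 165, 148 and 143 CPM in the latter. Bcan was 381 and 316 against 282, 293 and 273 CPM. Whether the opposing patterns are particular to matrix genes was not tested.

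**Figure D4:**
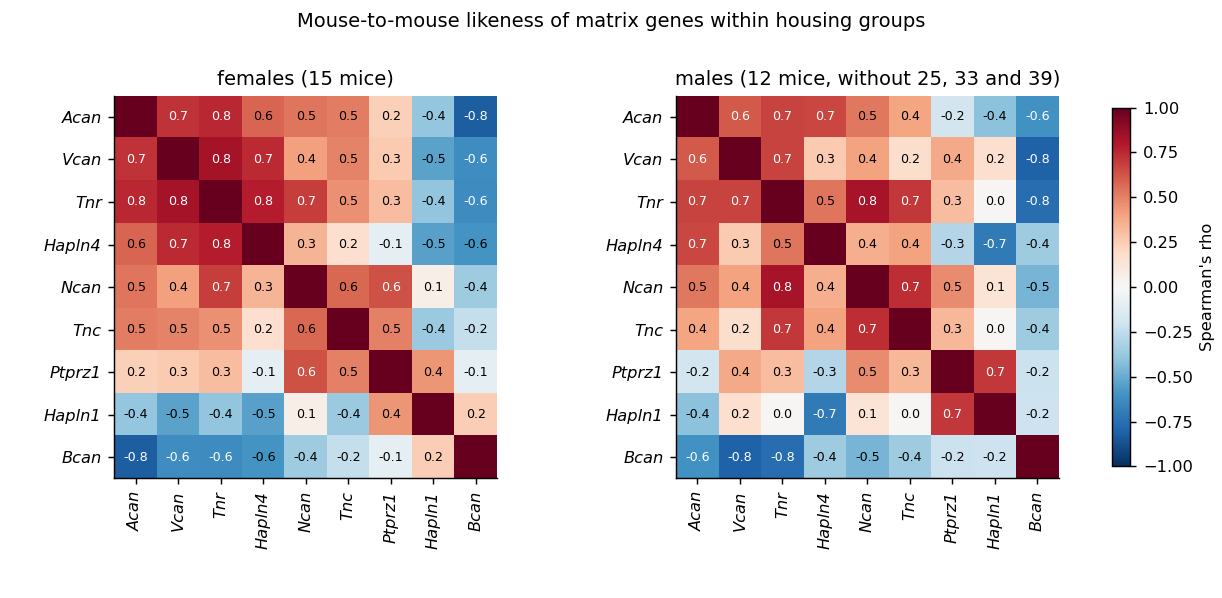
Spearman's rho between the log2 CPM of each pair of the 9 genes, after subtracting group means, over 15 females (left) and the 12 males without animals 25, 33 and 39 (right); red is positive and blue negative. Acan, Vcan, Tnr and Hapln4 form a red block in both panels, palest in males for Vcan and Hapln4 (0.259). The Bcan row is blue against these 4, down to -0.825 for Acan and Bcan in females.

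Among 15770 genes, those most like each member over the 15 females were named by rho. Tnr lay closest to Nbea (rho 0.986, r 0.983) and Atf7ip (rho 0.982, r 0.966), and in the 12 males these had rho of 0.937 and 0.951. Bcan lay closest to Fndc4 (rho 0.946, r 0.908) and Galt (rho 0.943, r 0.914), with rho of 0.713 and 0.874 in the 12 males. For Acan they were Fam84b (rho 0.971) and Tbc1d8b (rho 0.936), for Vcan Peg3 (0.971) and Prrc1 (0.961), and for Hapln4 6330407J23Rik (0.982) and Prkaca (0.979). For Hapln1 they were AA987161 (rho 0.95) and Eif1ax (0.907), for Ncan Fam123a (0.868) and Nfix (0.857), for Ptprz1 Spag9 (0.904) and Slc30a10 (0.889), and for Tnc Itpkb (0.907) and Slitrk6 (0.868). In the 12 males the rho was lower for most of these genes. It was 0.273 for Fam84b and 0.615 for Tbc1d8b with Acan, 0.308 for Itpkb and -0.175 for Slitrk6 with Tnc, and 0.434 for Fam123a and 0.825 for Nfix with Ncan.

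Members differ in transcript length and base composition. Vcan, with a longest coding transcript of 12429 bases, stood at the 99.3 percentile of tested genes, against a median of 3015 bases, and Bcan, with 3267 bases, at the 55.3 percentile. Bcan was GC rich at 61.3% (96.9 percentile) and Hapln1 GC poor at 38% (1.43 percentile). With each library's trend on length and GC removed, 4 of the 9 were called in females, Bcan and Ptprz1 lower and Acan (Log2FC 0.36, edgeR adjusted p = 0.0412) and Hapln4 (0.18, edgeR adjusted p = 0.0113) higher, in a fit that called 9.48% of all genes.

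The markers listed here for neurons that bear nets were not called in either sex. For parvalbumin interneurons 0 of 8 markers (Pvalb, Gad1, Gad2, Slc32a1, Kcnc1, Kcnc2, Tac1 and Erbb4) were called. Their median Log2FC was 0.08 in females and 0.13 in males. The summed level was 659 to 890 CPM in SI and 593 to 743 CPM in GH females, and 563 to 951 and 662 to 861 CPM in males. Most of this sum came from genes other than Pvalb. In females Gad1 had means of 224 CPM in SI and 201 CPM in GH, against 47.5 and 44.3 CPM for Pvalb. Pvalb itself had a mean of 75.5 CPM in SI and 41.9 CPM in GH males, with a fitted Log2FC of 0.13 (edgeR adjusted p = 0.616). For CA2 cells 0 of 6 were called, with medians of 0.07 and 0.11 and a summed level of 349 to 469 CPM in SI and 315 to 390 CPM in GH females. In males the CA2 sum was 355 to 584 CPM in SI (median 474) and 342 to 426 CPM in GH (median 354). Of the other lists in females, pyramidal and granule neurons had 1 of 6 markers lower (Camk2a, Log2FC -0.24) and endothelial cells 1 of 6 higher (Flt1, 0.14), while oligodendrocytes, microglia, fibroblasts and choroid plexus had 0 of 6 each. In males 0 markers of any list were called. Choroid plexus markers varied most, from 855 to 4910 CPM summed in females and from 38.4 to 4150 CPM in males, and no marker was at 0 in any library.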

How the data were processed

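RNA-seq was performed on 30 mouse hippocampi. The authors trimmed reads with Trimmomatic 0.39, quantified them with Salmon 1.8.0 and deposited unnormalized whole-number counts, 1 row per gene and 1 column per mouse. The submitters' processing notes name GRCm39, and the annotation release is not given in the sources used here. Symbols were matched for 16439 of 17477 genes (94.1%). GENCODE vM1 (NCBIM37) gave the length and GC of the longest coding transcript for 15964 genes (91.3%).

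Following the study's methods, females and males were fitted separately, here with edgeR 4.0.16 in R 4.3.3: filterByExpr (minimum count 10, minimum total count 15), TMM, surrogate variables from svaseq of sva 3.50.0 (3 in females, 2 in males, 4 in the fit of all 30 mice), glmQLFit and glmQLFTest, and Benjamini-Hochberg adjustment over all genes tested with a threshold of 0.05. CPM were computed by edgeR on TMM-scaled library sizes, and log2 CPM used a prior count of 2. The fit was tested on simulated counts. Replicate libraries differed by more than sampling noise (chi-square per degree of freedom at least 8.91 over 98 pairs), so the spread between mice sets the precision. Alternatives were DESeq2 1.42.0, its size factors, other numbers of surrogate variables, no filter, limma-voom (limma 3.58.1) with quality weights, the position digit of the labels, removal of length and GC trends, all groups in 1 fit, and leaving out mice. The male fit without SI 25, 33 and 39 estimated the number of surrogate variables anew and used 4.

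The members, the matrix gene list, the marker lists and the rule for naming genes were chosen with earlier results of these data known. Named from the matrix list were genes past the threshold in a sex, or the 4 with the smallest p where fewer passed, and for each member the 2 genes with the highest rho over females.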

Additional observations from a re-analysis of the deposited data

Results flagged for a closer look

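In 68 groups of values of named genes, 5 held a mouse whose distance to its nearest neighbour was large against the range of the group by Dixon's criterion, where about 3.4 would be expected at 1 in 20. Acan was 6.34 CPM in SI female 45, against 2.11 to 3.99 CPM in the other SI females. Hapln4 was 127 CPM in the same mouse, against 77.2 to 96.8 CPM, and that library was the deepest of all with 100844898 counts. Of the 15 females, it had the highest level for 4 of the 9 genes and the lowest for 1, Hapln1. Tnc was 4.81 CPM in SI female 53, against 6.94 to 8.72 CPM in the others, and that mouse had the lowest level of all females for 3 of the 9 genes. GH females held extremes too: GH 78 had the lowest level for 3 of the 9 and the highest for 1, and GH 54 the highest for 3. Acan was 6.11 CPM in SI male 7, against 2.17 to 3.68 CPM in the other SI males, and Tnc was 10.1 CPM in GH male 1, against 6.08 to 7.9 CPM in the other GH males. The cause of these values was not tested.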

How the results depend on the processing

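The 2 female calls among the 9 genes, Bcan and Ptprz1, depended on the model. Of all genes, 3.89% were called with the settings reported. Without surrogate variables and with the position digit as a factor 0 of the 9 and 0.0% of all genes were called. With 1 surrogate variable fewer, with no filter and by limma-voom it was 1 of the 9, with 3.43%, 3.92% and 5.23% of all genes. With 1 surrogate variable more and by DESeq2 it was 3 (6.76% and 7.87%), and with length and GC trends removed 4 (9.48%). Of the 59 other matrix genes, where 4 were called, these fits called 0 without surrogate variables, 0 with the position digit, 2 by limma-voom and 7 with length and GC trends removed. Leaving out each mouse in turn gave 0 to 3 calls among the 9 and 0 to 7 among the 59 in females, with 0.55% to 8.55% of all genes. In males it gave 0 to 3 and 0 to 12, with 0.0% to 15.3% of all genes, and the highest counts came without SI 27. The interaction gave 0 among the 9 in every such fit and 0 to 1 among the 59, with 0.0% to 2.35% of all genes. Between GH males and GH females 0 of the 9 and 7 of the 59 were called, with 6.31% of all genes. There DESeq2 gave 4 and 14 (11.8% of all genes) and its size factors 1 of the 9 (6.57%). Of the 59, no surrogate variables gave 0 (0.0976%), no filter 4 (3.7%) and omission of SI 25, 33 and 39 1 (0.901%). Leaving out 1 mouse in this comparison gave 0 to 3 and 0 to 15, with 0.687% to 16.2% of all genes. The difference in total counts was 2132551 to 13029599 in females and -21378390 to -14406592 in males with 1 mouse left out, and the male call was lost in 9 of 15 such fits.

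Log2FC that changed sign were all uncalled. Tnr in females was -0.01 without surrogate variables and with 1 fewer, -0.06 by limma-voom, -0.02 with the position digit and in 1 fit of all groups, and -0.06 to 0.06 with 1 mouse left out. In males Bcan was -0.03 without surrogate variables, -0.01 with 1 fewer, -0.01 with the position digit, -0.03 with trends removed and -0.05 in 1 fit of all groups. Hapln4 in males was -0.13 without surrogate variables, -0.03 by limma-voom, -0.22 with the position digit and -0.01 without SI 25, 33 and 39. That last fit, with 4 surrogate variables instead of 2, gave 0.03 for Vcan and 0.11 for Hapln1. Acan in males was -0.13 with the position digit, Vcan 0.04 with trends removed and Tnr 0.04 in 1 fit of all groups. With 1 male left out the ranges were -0.07 to 0.28 for Acan, -0.04 to 0.06 for Bcan, -0.34 to 0.12 for Vcan, -0.02 to 0.2 for Hapln4 and -0.27 to 0.08 for Tnr. The cause was not tested.

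No paired analysis was possible because the numbers in the labels name single mice and no number occurs in 2 groups. Position digit 3 occurred in no GH female and digit 4 in no SI male, which ties the digit in part to housing. Acan has the fewest reads of the 9. The whole-tissue counts cannot show protein in nets or which cells made the RNA.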
